A study of Mus musculus with 354 samples.

Results

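OR3609 is 1 of 45 inbred Collaborative Cross strains whose livers were profiled, and its untreated expression state is described here from the 4 arrays of its vehicle animals. These 4 arrays are set against the 175 vehicle arrays of the other 44 strains, each strain counting once through its mean, out of 354 arrays in all. Both sides were male mice of 8 to 10 weeks that had been acclimated for about 7 days, fasted for about 18 h and given vehicle, and livers were taken 24 h later. A further 4 OR3609 animals received tolvaptan, which blocks the V2 receptor of vasopressin, as did 171 animals of the other strains. OR3609 was selected on its vehicle values, so the vehicle difference is given as a description with no test. The only tests of the strain difference below use the tolvaptan arrays, which that selection did not use.

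The Collaborative Cross is a panel of inbred strains bred from several founder strains, and each strain fixes its own mosaic of founder alleles. The liver makes most plasma proteins, clears drugs and steroids through cytochrome P450 and conjugating enzymes, and in fasting turns to fat oxidation and glucose production. Strains can differ in any of these programmes through inherited differences at or near a gene. They can also differ through hormones and feeding state, which act on many genes together. In whole tissue, fewer cells of a type and less RNA per cell cannot be told apart.

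Values are log2 intensities after RMA, and a log2 difference of 1 is 2-fold. Of the 354 arrays, 34 matched their labelled strain poorly, and none of these was an OR3609 array. The 8 OR3609 arrays correlated with the other arrays of their strain at 0.887 to 0.952 over 500 strain-informative probe sets, and no poorly matching array resembled OR3609 best. The vehicle animals 441, 442, 443 and 444 were scanned on 4 different dates, coded as scans 4, 5, 6 and 1. The tolvaptan animals 445, 446 and 447 shared scan 5, and animal 448 was in scan 1. Array medians lay between 2.81 and 3.02, and values near or under them are close to background. The labelled tissue was borne out by its markers: the mean over 16 hepatocyte markers was 12.38 to 12.54 in the OR3609 vehicle arrays, against 12.10 to 12.76 with a median of 12.56 in the other vehicle arrays.

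Among 14125 genes kept, 147 were at least 2-fold higher in OR3609 than the mean of the other strains (1.04%) and 166 were at least 2-fold lower (1.18%). In 86 genes all 4 OR3609 arrays lay above every other strain mean (0.609%), and in 42 they lay below every one (0.297%). Of those 86 and 42 genes, 17 and 16 also passed 2-fold, and the rest differed by less. The 313 genes past 2-fold compare with 120 to 450 in the other strains (median 235.5), and the 128 genes beyond all strain means with 5 to 274 (median 41.5). In the 25 other strains without a poorly matching array these ranges were 160 to 367 (median 260) and 15 to 212 (median 51). The median SD between the 4 OR3609 vehicle animals was 0.266, against 0.202 to 0.425 in the other strains, or up to 0.315 in those 25. Measured against its own scan only, each of the 4 animals had the same sign in 127 of the 147 higher genes and in 146 of the 166 lower ones. Scan 6 holds only 4 vehicle arrays of other strains and scan 5 only 10. The genes were also chosen on the mean of these same 4 animals, so agreement in sign is partly built in.

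**Figure D1:**
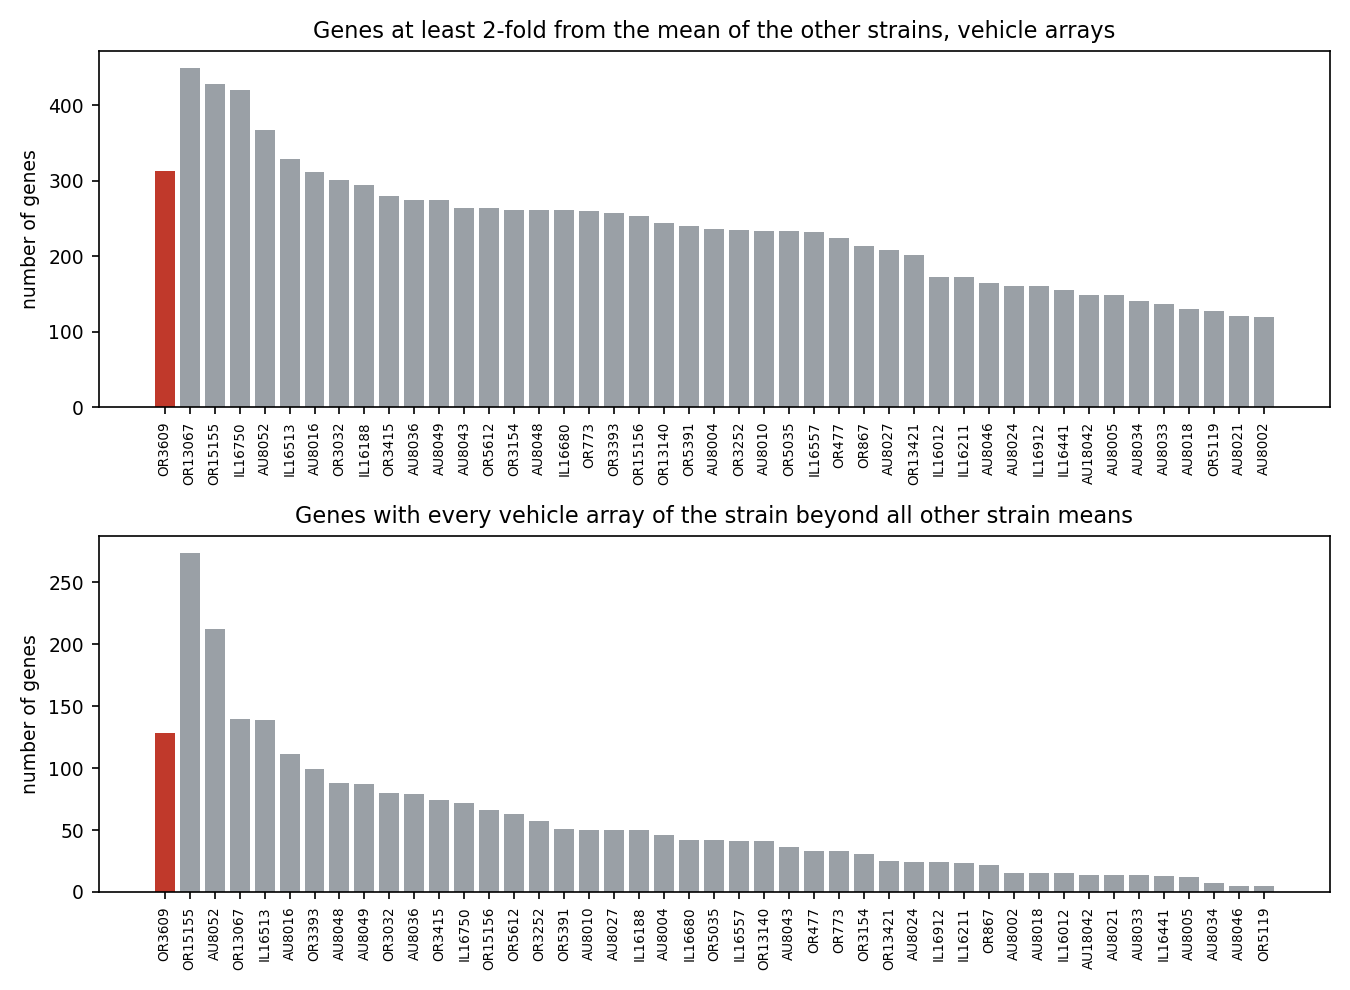
Number of genes at least 2-fold from the mean of the remaining strains (upper panel) and number with every vehicle array beyond all other strain means (lower panel), 1 bar per strain, with OR3609 in red at the left and the other strains in falling order. OR3609 had 313 and 128 genes. Other strains reached 450 and 274, or 367 and 212 among the 25 without a poorly matching array.

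The 15 genes farthest above the other strains, taken among genes with all 4 animals on the same side of the median strain, began with Fam107a, an actin-associated protein that stress hormones induce in other tissues. It measured 8.59, 8.94, 6.03 and 9.98 in the OR3609 vehicle animals, against a mean of 3.83 over the other strains (range of strain means 1.96 to 9.0). Only 2 other strain means were higher, and animal 443 lay well under its 3 strain mates. Scara5, a scavenger receptor that takes up ferritin, was 9.34, 9.69, 8.26 and 9.16 in OR3609, against 5.57 (2.17 to 8.99). OR3609 was the highest of 45 strains for Scara5, with AU8043 the next.

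In 4 further genes of lipid and mitochondrial metabolism and of chromatin, OR3609 was the highest of the 45 strains. Lpin1, a phosphatidate phosphatase and transcriptional co-regulator that fasting induces in liver, was 11.35, 11.38, 10.41 and 11.45 in OR3609, against 8.17 (5.08 to 10.31) in the other strains. Its lowest OR3609 animal lay above every other strain mean. Slc25a51, which carries NAD into mitochondria, was 10.08, 10.67, 9.35 and 9.95 in OR3609, against 8.02 (6.06 to 9.50). Setdb2, a histone lysine methyltransferase, was 8.33, 8.09, 7.32 and 8.37, against 5.96 (5.08 to 7.31). Gpcpd1, a glycerophosphocholine phosphodiesterase, was 10.35, 9.49, 9.49 and 9.21, against 7.67 (6.56 to 9.10). In each of these genes all 4 OR3609 animals lay above the mean of the other strains by more than 1.

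Receptors and immune genes among the 15 were Nlrp12, Il1r1 and H2-Bl. Nlrp12, a NOD-like receptor that tempers inflammatory signalling, was 9.39, 8.93, 8.52 and 10.03 in OR3609, against 5.82 (2.19 to 9.23). Il1r1, the signalling receptor of interleukin 1, was 9.30, 8.95, 8.26 and 9.37, against 7.02 (5.47 to 8.95). H2-Bl, a class I gene of the major histocompatibility complex, was 8.48, 8.56, 8.16 and 8.50, against 5.09 (1.82 to 9.48). For H2-Bl 11 other strain means lay within 1 of the OR3609 mean, and 3 strains were higher. That gene has close relatives in the complex, and whether its probe set separates them was not tested.

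The conjugating enzyme Ugt3a2 was also high in many other strains. It was 11.51, 11.45, 11.50 and 11.45 in OR3609, against a mean of 8.39 with a range of 3.50 to 11.50. Of the other strain means, 22 lay within 1 of OR3609. Obp2a, an odorant-binding lipocalin, was 6.62, 8.76, 7.73 and 8.82 in OR3609, against 5.33 (1.71 to 11.60), and 10 other strains had higher means. By contrast Dcaf4, a substrate receptor of a cullin ubiquitin ligase, was 6.25, 6.28, 5.85 and 6.43, against 3.66 (2.55 to 6.09), the highest of all strains. The actin nucleator Fmn2 was also highest in OR3609, with 5.31, 5.88, 5.40 and 6.25, against 3.80 (2.67 to 4.91).

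The circadian repressor Ciart was 7.32, 7.2, 6.71 and 5.37 in OR3609, against 4.43 (3.10 to 6.28). Its animal 444, scanned in scan 1, was the low one, and measured within its scan it exceeded the other strains by 0.67. The pseudogene Serpina4-ps1 was 10.11, 10.14, 9.84 and 10.97, against 8.19 (5.82 to 11.82), with 3 other strain means higher. The last of the 15, Fmn2, had a difference of 1.91, and the next gene outside, the drug-inducible cytochrome Cyp2b10, one of 1.89.

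**Figure D2:**
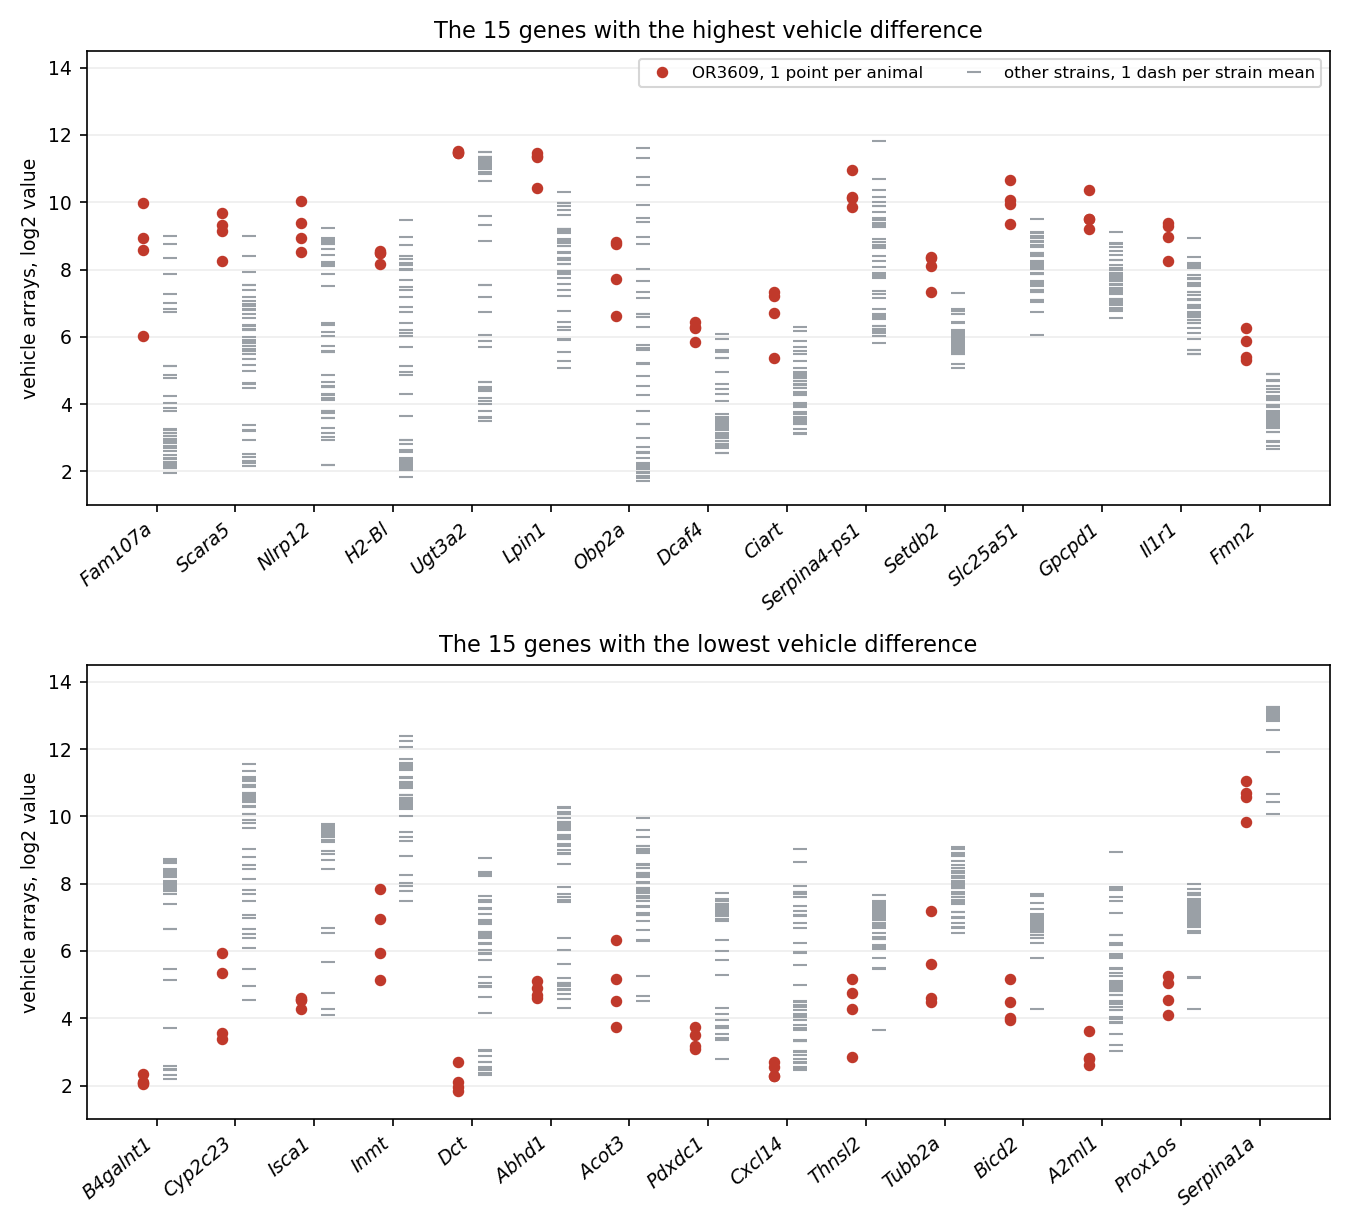
Log2 values in vehicle arrays of the 15 highest genes (upper panel) and the 15 lowest genes (lower panel); red points are the 4 OR3609 animals and grey dashes are the means of the 44 other strains. Ugt3a2 has 22 other strain means within 1 of OR3609 and Isca1 has 3, while for Lpin1 and Setdb2 all OR3609 animals lie above all other strain means.

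The 15 lowest genes began with B4galnt1, the synthase of the gangliosides GM2 and GD2. It was 2.33, 2.12, 2.05 and 2.08 in OR3609, under the array median, against 7.19 (2.21 to 8.73) in the other strains. Another 5 strain means lay within 1 of OR3609. Isca1, a mitochondrial iron-sulfur cluster assembly factor, was low in few other strains, with 4.27, 4.54, 4.61 and 4.54 in OR3609, against 8.88 (4.08 to 9.78) and 3 other strain means within 1. Abhd1, an alpha/beta hydrolase, was 4.61, 4.91, 5.10 and 4.68, against 8.01 (4.29 to 10.27), and 11 other strains were within 1.

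Several of the 15 lowest genes encode enzymes of drug, lipid, amine or amino acid metabolism. Cyp2c23, a cytochrome P450 that epoxidises arachidonic acid, was 5.35, 3.38, 5.95 and 3.55 in OR3609, against 9.27 (4.53 to 11.55). Only AU8052 had a lower mean. Inmt, an amine and thioether methyltransferase, was 7.84, 5.93, 6.94 and 5.13, against 10.52 (7.48 to 12.38), the lowest of 45 strains, with no other strain mean within 1. Acot3, a peroxisomal acyl-CoA thioesterase that PPAR-alpha induces, was 5.17, 4.52, 3.75 and 6.33, against 7.84 (4.5 to 9.95). Thnsl2, a threonine synthase-like enzyme, was 2.86, 4.74, 4.28 and 5.16, against 6.76 (3.65 to 7.67). Pdxdc1, a pyridoxal-dependent decarboxylase family member, was 3.52, 3.17, 3.10 and 3.73, against 6.23 (2.80 to 7.72). Of its 2 other probe sets 1 had the same sign (-1.21). The other was higher, by 2.13 under vehicle and by 2.56 in the tolvaptan arrays without scan adjustment. The direction for Pdxdc1 thus depends on the probe set.

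Serpina1a, 1 of several mouse genes for the protease inhibitor alpha-1-antitrypsin, was 9.83, 10.70, 10.57 and 11.06 in OR3609, against 12.83 (10.07 to 13.25). All 4 animals lay under most other strain means, 3 of which were within 1 of OR3609. Its paralogue Serpina1b was brighter, at a mean of 13.8 in OR3609, against 13.7, and its difference of 0.05 in the tolvaptan arrays was not called (adjusted p = 0.685). The paralogues are near-identical, and whether these probe sets separate them was not tested. A2ml1, an alpha-2-macroglobulin-like inhibitor, was 2.62, 2.79, 3.62 and 2.82, against 5.32 (3.03 to 8.94).

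The remaining low genes had structural or signalling roles. Tubb2a, a beta-tubulin, was 4.49, 5.61, 4.59 and 7.17 in OR3609, against 7.91 (6.55 to 9.10), and its animal 444 overlapped the other strains. Bicd2, a dynein adaptor, was 4.48, 3.94, 4.0 and 5.16, against 6.77 (4.27 to 7.70), but only 1 of its 3 other probe sets had the same sign. The melanin enzyme Dct was 2.12, 1.95, 1.83 and 2.69, against 5.49 (2.31 to 8.76), and 12 other strain means were within 1. The chemokine Cxcl14 was 2.54, 2.27, 2.70 and 2.29, against 5.04 (2.46 to 9.02), and the non-coding Prox1os was 5.06, 5.27, 4.09 and 4.54, against 7.05 (4.29 to 7.98). The 15th gene, Serpina1a, differed by -2.29 and the next outside, Cobl, by -2.26.

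Of the 15 highest genes 7 had further probe sets, and these shared the sign in all 7. Of the 15 lowest 5 had further probe sets, which all shared the sign in 3. Strains differ in sequence, and whether a variant under a probe moved any of these values was not tested. AU8052, the strain whose vehicle profile was closest to OR3609 over the strain-informative probe sets (r = 0.308), had the highest mean of the other strains in 3 of the 15 highest genes and the lowest in 4 of the 15 lowest, more often than any other strain.

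The spread inside OR3609 was not even over the animals. Animal 443 was the lowest of the 4 vehicle animals in 10 of the 15 highest genes and the highest in none. Among the tolvaptan animals, 447 was the lowest in 11 of 15 and the highest in none. Igfbp1, a secreted binding protein that fasting raises, was 12.73, 13.04, 10.79 and 13.58 in the vehicle animals, and the glucocorticoid-induced tyrosine aminotransferase Tat was 12.33, 12.43, 11.19 and 12.50, with animal 443 low in both. Animal 443 also had the widest spread of relative log expression among the 8 arrays (0.559, against 0.401 to 0.520), and it was the 1 OR3609 array in scan 6. Its animal state and its scan cannot be told apart. The order was less uneven in the 15 lowest genes, where animal 443 was lowest in 5 and highest in 5.

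**Figure D3:**
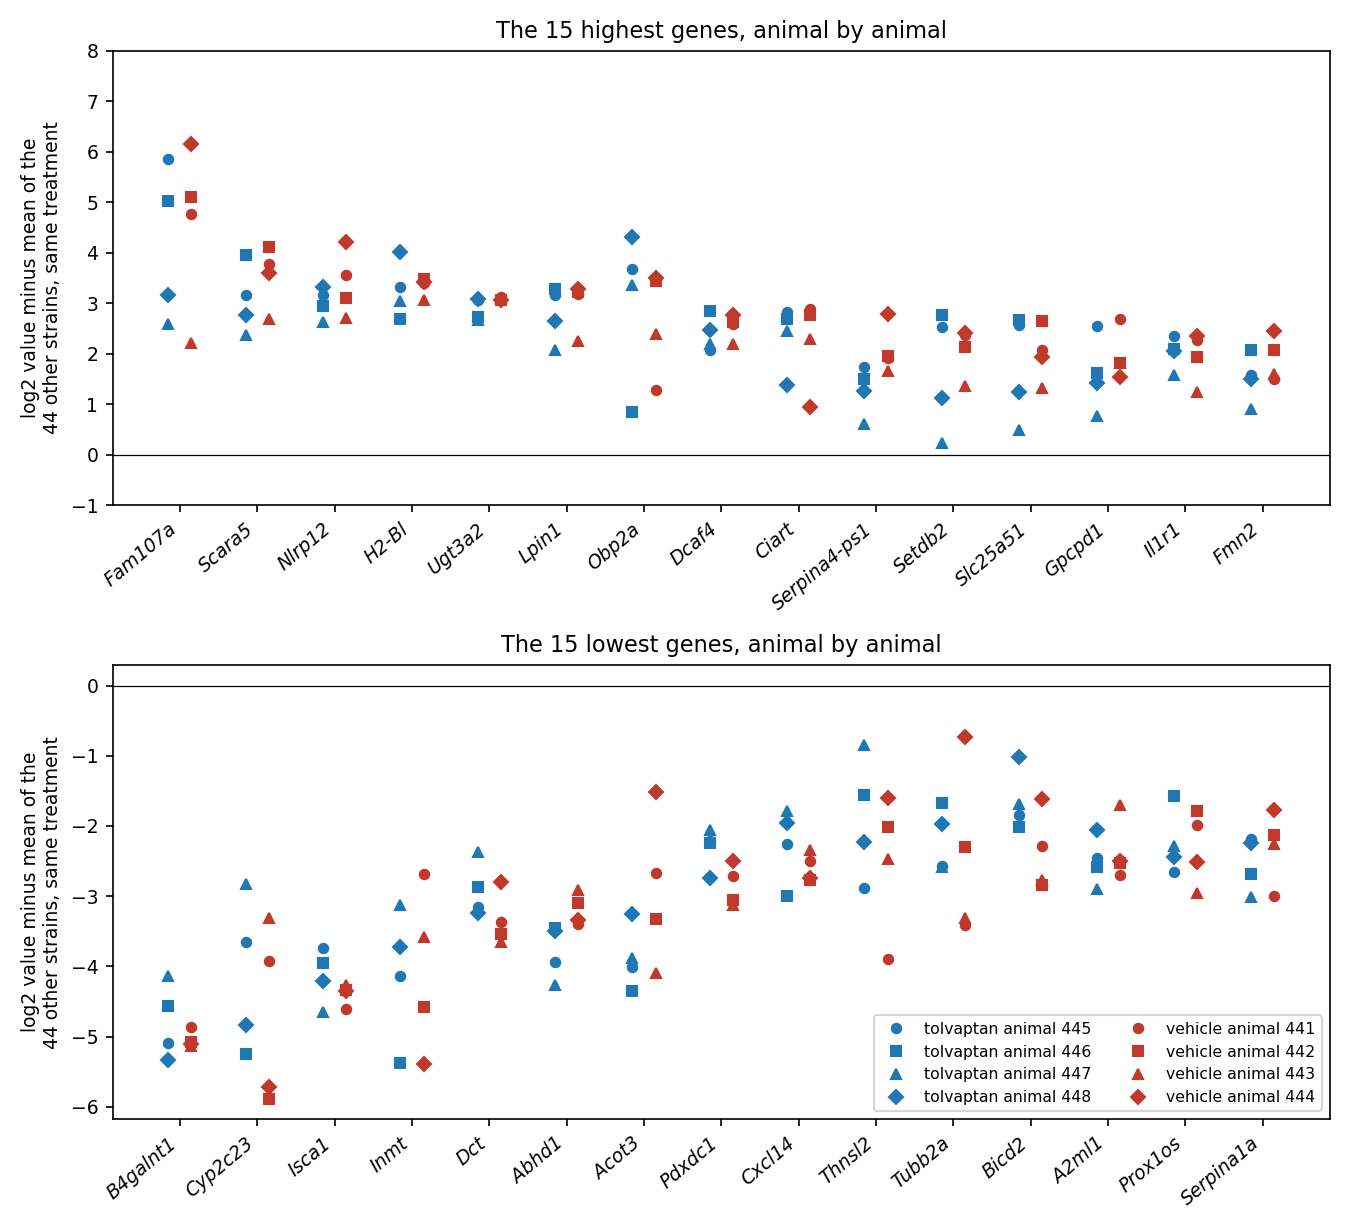
Each OR3609 animal's log2 value minus the mean of the 44 other strains under the same treatment, for the 15 highest and 15 lowest genes, with tolvaptan animals in blue on the left and vehicle animals in red on the right. Triangles mark animals 447 and 443, which were the lowest of their 4 animals in 11 and 10 of the 15 highest genes, and all points in the upper panel lie above 0.

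Other genes in which all 4 OR3609 vehicle animals lay beyond every other strain mean were smaller in size. The largest difference was in the RIKEN clone gene 2210039B01Rik, with 3.35, 3.21, 3.19 and 2.91 in OR3609, against 5.31 (4.20 to 6.07). Map3k5, a stress-activated kinase also called ASK1, was 8.32, 8.32, 8.14 and 7.60, against 6.88 (5.89 to 7.37). Sesn1, a sestrin that restrains mTORC1, was 7.72, 7.63, 7.54 and 7.73, against 6.15 (5.42 to 7.09), and both of its other probe sets were also at least 2-fold higher. Gin1, a gene derived from a transposon integrase, was 7.06, 6.36, 6.20 and 7.25, against 5.36 (4.60 to 6.05).

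On the low side of that group were also Cul7, Cybb and 3 genes with names of predicted or RIKEN clone genes. Cul7, a cullin scaffold, was 4.19, 3.45, 3.36 and 3.44 in OR3609, against 5.06 (4.30 to 5.96). Cybb, the catalytic subunit of the phagocyte NADPH oxidase, was 2.90, 3.17, 2.20 and 2.95, against 4.05 (3.34 to 5.0). The means of Gm32461, 9330151L19Rik and 2010003K11Rik were 3.25, 2.16 and 5.09 in OR3609, against 5.12, 3.42 and 6.66. Of the 42 genes below all strain means, 12 had an OR3609 mean under the typical array median of 2.89, where differences are compressed.

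The strain difference was then tested in the tolvaptan arrays, with limma, 1 mean per strain and scan as a covariate. OR3609 differed from the mean of the other strains in 415 of 14125 genes at an adjusted p under 0.05, 228 higher (1.61%) and 187 lower (1.32%), with 2123 genes at an unadjusted p below 0.05. For the 147 genes at least 2-fold higher under vehicle, 146 had the same direction and 61 (41.5%) were called higher. Of the 166 lower genes all 166 had the same direction and 80 (48.2%) were called lower. No gene of either set was called in the opposite direction. Scan 5 holds 3 of the 4 OR3609 tolvaptan animals and only 8 tolvaptan arrays of other strains. Within it 225 genes were called and 106 of them were among the 415. Without the scan term 1322 were called. The tolvaptan animals are other mice of the same strain, so the agreement is between animals and not between strains. The correlation of the 2 differences across all genes was 0.779, given as a description because genes are not independent.

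Among the 15 highest genes 10 were called in the tolvaptan arrays. Fam107a was 9.64, 8.80, 6.38 and 6.95 in OR3609, against 3.79 in the other strains, a fitted difference of 4.05 ± 0.75 (SE, adjusted p = 8.24e-05). Dcaf4 was 5.74, 6.5, 5.86 and 6.14, against 3.67, a difference of 2.44 ± 0.34 (adjusted p = 3.85e-08). Il1r1 was 9.41, 9.15, 8.62 and 9.10, against 7.05, a difference of 2.45 ± 0.49 (adjusted p = 0.000406). Nlrp12 differed by 3.06 ± 0.62, H2-Bl by 3.62 ± 0.69 and Setdb2 by 1.68 ± 0.38, with adjusted p-values of 0.000567, 0.000152 and 0.00241. All 4 animals were above the mean of the other strains in each of these 6 genes.

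Scara5 (3.46 ± 0.93, adjusted p = 0.0181), Ugt3a2 (2.68 ± 0.77, 0.0308), Obp2a (3.89 ± 1.02, 0.0138) and Fmn2 (1.63 ± 0.40, 0.00764) were also called, but lost the call without single animals. Without animal 448 their differences were 3.60, 2.42, 3.74 and 1.69, close to those with all animals, and their adjusted p-values were 0.133, 0.264, 0.16 and 0.0861. That fit holds only scan 5 animals of OR3609. Without animal 446 Scara5 and Ugt3a2 had 0.0571 and 0.0503, and without animal 445 Ugt3a2 and Obp2a had 0.0705 and 0.053. Lpin1 missed the threshold, with 11.34, 11.47, 10.25 and 10.83 in OR3609, against 8.18, a difference of 2.44 ± 0.75 (adjusted p = 0.0504), and passed it without animal 447 (0.0386). Slc25a51 was likewise at 0.0971 with all animals and 0.0303 without animal 447. Ciart, Gpcpd1 and Serpina4-ps1 had fitted differences of 1.78, 1.24 and 1.13 with adjusted p-values of 0.197, 0.279 and 0.469.

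Among the 15 lowest genes 14 were called. B4galnt1 was 2.05, 2.58, 3.0 and 1.80 in OR3609, against 7.14, a difference of -4.64 ± 0.68 (adjusted p = 1.66e-07). Isca1 differed by -4.24 ± 0.15 (adjusted p = 2e-52), Cyp2c23 by -4.55 ± 0.84 (8.93e-05), Inmt by -4.43 ± 0.80 (5.65e-05), Abhd1 by -3.58 ± 0.44 (2.73e-10), Acot3 by -3.72 ± 0.77 (0.000754) and Serpina1a by -2.42 ± 0.12 (5.53e-38). Those 7 calls held without each animal in turn, as did those of Pdxdc1, Thnsl2 and Bicd2. The Pdxdc1 call is that of its brightest probe set, and another of its probe sets was higher in OR3609. Dct, Tubb2a, A2ml1 and Prox1os lost the call without animal 448, at 0.507, 0.169, 0.109 and 0.0766, with differences of -1.39, -2.14, -1.58 and -1.84. Dct and Tubb2a also lost it without animal 445, at 0.0514 and 0.0837, and Tubb2a without animal 447, at 0.0646. Cxcl14 was not called (-1.96 ± 0.96, adjusted p = 0.314).

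**Figure D4:**
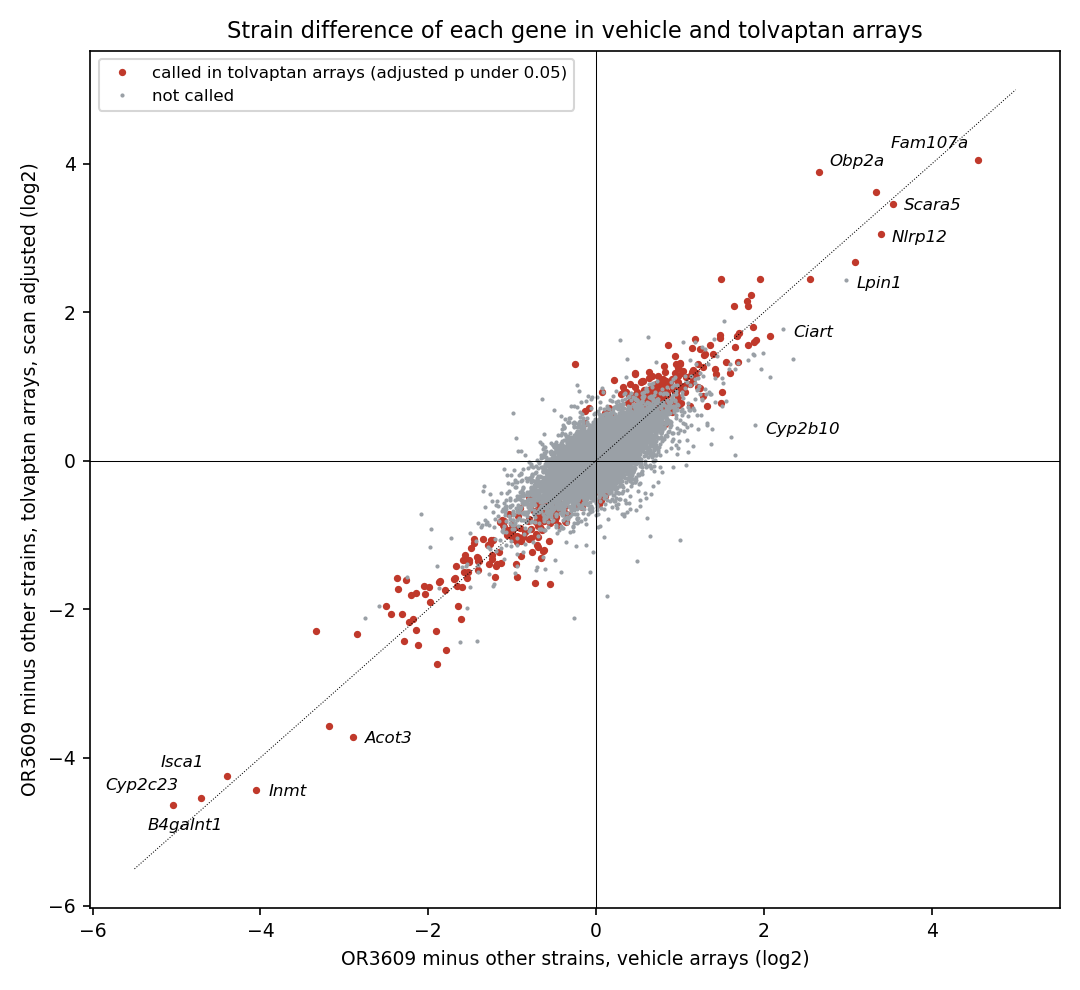
Each of 14125 genes by its OR3609 minus other strains difference in vehicle arrays (x axis, log2) and in tolvaptan arrays after scan adjustment (y axis, log2), with red points for the 415 genes called in the tolvaptan arrays and a dotted line of equality. The named genes at both ends lie near the line, while Cyp2b10 differed by 1.89 under vehicle and by 0.48 under tolvaptan.

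Genes with large called differences in the tolvaptan arrays outside those lists were Cdhr2, Sertad4, Ube2v2, Fmr1nb and Arhgef10 on the high side. The cadherin-related Cdhr2 was 5.51, 3.61, 5.70 and 4.28 in OR3609, against 2.29, a difference of 2.45 ± 0.25 (adjusted p = 7.92e-14). Ube2v2, a ubiquitin-conjugating enzyme variant, differed by 2.16 ± 0.25 (adjusted p = 3.64e-11), and Sertad4, Fmr1nb and Arhgef10 by 2.23, 2.08 and 2.08. On the low side G0s2, an inhibitor of the lipase ATGL, was 6.58, 7.72, 8.50 and 8.93 in OR3609, against 10.66, a difference of -2.48 ± 0.58 (adjusted p = 0.00443). Fitm1, a fat storage-inducing membrane protein, differed by -2.73 ± 0.52 (adjusted p = 0.000172), and Zfp825, Akr1c18 and Nek2 by -2.30, -2.28 and -2.17. Akr1c18 lost its call without animal 448 (0.0756). Its OR3609 tolvaptan values were 2.59 to 3.02, near the array medians, against a median of 3.26 and a highest value of 9.65 in the other tolvaptan arrays. Of the other strain means for Akr1c18, 24 lay within 1 of OR3609. In vehicle arrays G0s2 was 10.04, 7.89, 9.40 and 7.10, against 10.73, and its difference from the other strains was -2.13.

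Of the 10 further genes chosen for lying beyond every strain mean under vehicle, 8 were called in the tolvaptan arrays. These were 2210039B01Rik (-1.78 ± 0.26, adjusted p = 1.54e-07), 9330151L19Rik, Gm32461, Cybb, Cul7, 2010003K11Rik, Map3k5 and Sesn1. Map3k5 was 8.39, 7.88, 7.54 and 7.72, against 6.96, a difference of 0.99 ± 0.28 (adjusted p = 0.0224), and Sesn1 was 7.92, 7.53, 7.03 and 6.51, against 6.20, a difference of 0.93 ± 0.27 (0.033). Gin1 was not called (adjusted p = 0.0893). Without animal 448, Map3k5, Cul7, Gm32461, 2010003K11Rik and Cybb had adjusted p-values of 0.24, 0.16, 0.15, 0.216 and 0.151. Without animal 445, Map3k5, Sesn1 and 2010003K11Rik had 0.101, 0.16 and 0.0574, without animal 446 Cul7 and Sesn1 had 0.0503 and 0.0886, and without animal 447 2010003K11Rik had 0.0798. The calls of 2210039B01Rik and 9330151L19Rik held in all 4 such fits.

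Whether a gene stands out depends on the spread it is set against. The fit above uses the spread between animals of a strain, in which most strains differ from the panel mean: the other strains had 191 to 4656 genes called by the same test (median 913), more than the 415 of OR3609 in most cases. In the 25 other strains without a poorly matching array the range was 276 to 2580 (median 776). With the 44 other strain means as the spread, 4 genes were called: 2210039B01Rik (-1.78, adjusted p = 0.00138), A230072C01Rik (0.88, 0.0128), Tmco5b (0.74, 0.0128) and Rab11fip5 (1.28, 0.0487). The last 3 are outside the rule for named genes and were picked for this count of 4. Thus of the 55 named genes called in the tolvaptan arrays, 54 lost the call when strains were the unit.

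Gene lists were read by their counts, beside the median vehicle difference of all genes of -0.02 and the called shares given above. Of all 14125 genes, 6513 were higher and 7612 lower under vehicle, and 6951 were higher in the tolvaptan arrays. In xenobiotic metabolism, the cytochrome families 2c, 2d and 3a had 16 measured members with a median of -0.15, and 3 were called lower: Cyp2c23, Cyp2c37 and Cyp2c38. Cyp2c37 was 6.05, 6.17, 7.71 and 6.79 in OR3609 vehicle animals, against 8.47, and differed by -2.55 ± 0.58 in tolvaptan arrays (adjusted p = 0.0029). Close relatives in this family may share probes, which was not tested. Of 22 targets of the nuclear receptors CAR and PXR, 3 were called lower, Cyp2c37, the bile salt exporter Abcc3 (-1.15 under vehicle, -1.23 in the tolvaptan fit, adjusted p = 0.00864) and the non-coding Meg3 (-1.40 and -1.35, 0.000367). Cyp2b10, a classic CAR target, was 7.37, 9.87, 6.55 and 10.25 under vehicle, against 6.62, with strain means from 2.96 to 11.48.

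Conjugation and antioxidant genes were mixed. Of 17 glutathione S-transferases, 11 were lower under vehicle, and 8 were higher in the tolvaptan arrays. The microsomal Mgst3 was the lowest of all strains, with 6.27, 5.5, 5.28 and 5.29 in OR3609, against 7.62, and a tolvaptan-array difference of -1.79 ± 0.40 (adjusted p = 0.00251, and 0.203 without animal 448). Gstm5 was called higher (0.64 under vehicle, 0.87 in the tolvaptan fit, adjusted p = 0.0245). Of 22 targets of the oxidant sensor NRF2, 18 were lower under vehicle with a median of -0.12. In the tolvaptan arrays 9 of the 22 were higher, with a median of -0.07, and 2 were called lower. These were the glutathione synthesis enzyme Gclc (-0.97 and -1.05, adjusted p = 0.0214) and the quinone reductase Nqo1 (-0.89 and -1.28, 0.00703). Gclc lost its call without animals 445, 446 or 448, at 0.0707, 0.139 and 0.0612. Of 17 glucuronosyl- and sulfotransferases 13 were higher under vehicle and 14 in the tolvaptan arrays, and Ugt3a2 was the 1 call. The sulfotransferase Sult1d1 was 9.96, 10.76, 9.60 and 11.42 in OR3609 vehicle animals, against 8.63, the highest of all strains, and in the tolvaptan arrays it had an adjusted p of 0.0693, or 0.0314 without animal 447.

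Among lipid genes, 22 of 29 PPAR-alpha targets were lower under vehicle (median -0.22) and 25 were lower in the tolvaptan arrays (median -0.25), but Acot3 was the 1 call. The fasting hormone Fgf21 was 4.62, 5.35, 4.36 and 4.84 in OR3609 vehicle animals, against 6.42, and 3.04, 4.93, 2.94 and 5.32 in tolvaptan animals, against 6.44. Its fitted difference of -2.44 ± 0.75 had an adjusted p of 0.0507, or 0.0377 without animal 448. Cpt1a, the gatekeeper of mitochondrial fat oxidation, differed by 0.18 and 0.04. Cholesterol synthesis genes were higher in 10 of 16 (median 0.25) and fatty acid synthesis genes lower in 14 of 22 (median -0.21) under vehicle. In the tolvaptan arrays 11 genes of each list were higher (medians 0.15 and -0.002), with no call in either list. The lipogenic Thrsp was 11.81, 11.58, 11.69 and 8.60 in OR3609 vehicle animals, against 9.48, with animal 444 apart.

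Of 27 bile acid synthesis and transport genes 17 were higher and 10 lower under vehicle (median 0.08), with 1 called higher, Cyp7b1, and 1 called lower, Abcc3. The list included Cyp7a1, the rate-limiting enzyme of classical bile acid synthesis, at 7.67, 7.32, 8.60 and 9.53 in OR3609 vehicle animals, against 6.73, the highest of all strains. In tolvaptan animals it was 6.82, 8.04, 8.78 and 7.44, against 6.69, and was not called (0.81 ± 0.75, adjusted p = 0.662). Cyp7b1, the oxysterol hydroxylase of the alternative pathway, was 12.25, 12.23, 12.29 and 11.85 under vehicle, against 10.97, and differed by 1.63 ± 0.39 in the tolvaptan arrays (adjusted p = 0.00528, and 0.0766 without animal 448). On the low side under vehicle were Abcc3 (-1.15), the nuclear receptor Nr0b2 (-1.19) and the organic anion transporter Slco1a4 (-1.22), and the tolvaptan-array differences of Nr0b2 and Slco1a4 had adjusted p-values of 0.601 and 0.107. Cyp7b1 and the complement gene C6 were the 2 calls, both higher, among 17 male-biased liver genes. Of 18 female-biased genes Acot3 was called lower and none higher. Members of both lists went either way. Under vehicle 3 female-biased genes were at least 2-fold higher and 2 at least 2-fold lower, and in the tolvaptan arrays 9 of the 18 were higher. Of the male-biased genes 13 were higher under vehicle, while Serpina12 differed by -1.54.

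Most glucose and amino acid genes were higher under vehicle, and the 1 call was lower. In the gluconeogenesis and glycogen list 14 of 17 were higher under vehicle (median 0.25) and 12 in the tolvaptan arrays (median 0.17), with 0 called. Tat and the aminotransferase Gpt2 were the highest of all strains under vehicle (differences of 0.85 and 0.70), and their tolvaptan-array differences of 0.39 and 0.52 had adjusted p-values of 0.69 and 0.131. In the urea cycle and amino acid list 18 of 24 were higher, and the branched-chain dehydrogenase subunit Bckdhb was the 1 call, lower by -0.81 ± 0.16 (adjusted p = 0.000315). Of 19 clock genes and outputs 14 were higher under vehicle (median 0.26) and 10 in the tolvaptan arrays (median 0.07), none called. The clock output Usp2 was 9.74, 9.42, 9.22 and 8.71 in OR3609 vehicle animals, against 7.76, the highest strain. The core gene Arntl and the output Dbp differed by -0.14 and -0.34, and Nr1d2 of the same list by 0.74. Time of day of tissue collection was not analysed here.

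**Figure D5:**
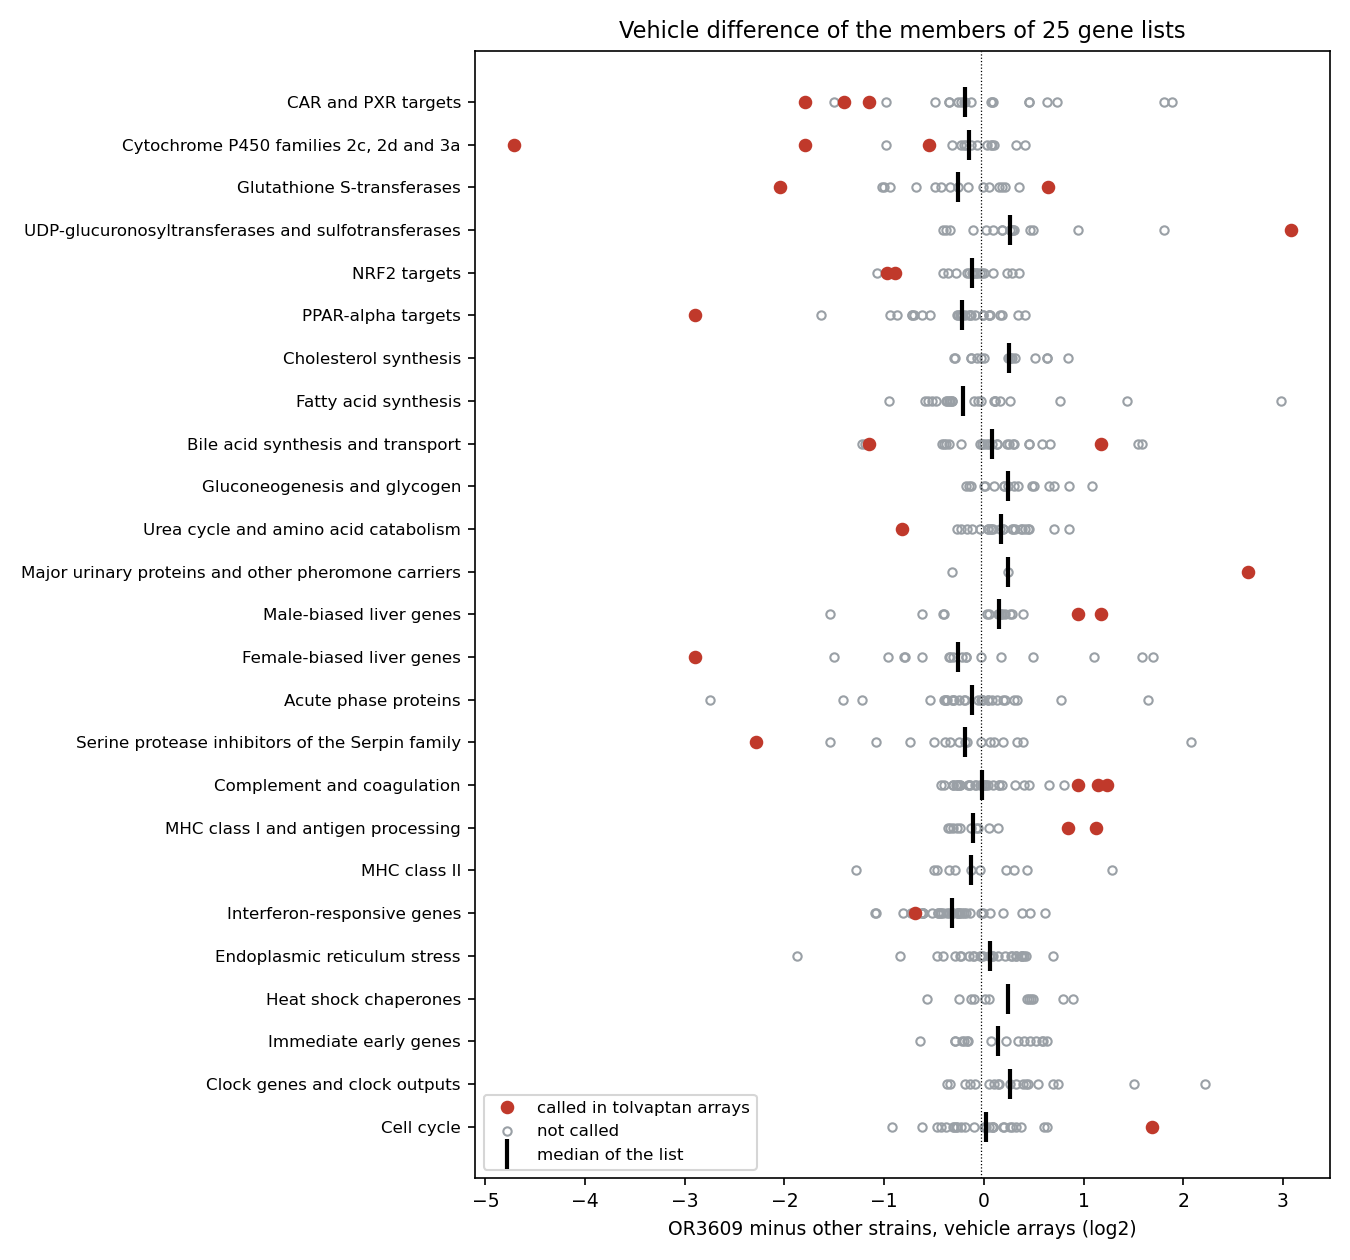
Vehicle difference (log2, OR3609 minus other strains) of every measured member of 25 gene lists, 1 circle per gene, filled red where the gene was called in the tolvaptan arrays, with the median of each list as a black bar and the median of all genes (-0.02) as a dotted line. List medians lay between -0.32 and 0.26, and single members such as Cyp2c23, Acot3, Ugt3a2 and Lpin1 were far outside them.

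In the complement and coagulation list 3 of 33 genes were called higher, all in the terminal complement pathway that forms the membrane attack complex. Hc, which encodes C5, was 10.86, 10.44, 10.90 and 11.16 in OR3609 vehicle animals, against 9.60, and 11.08, 10.68, 10.98 and 11.02 in tolvaptan animals, against 9.62, a difference of 1.51 ± 0.32 (adjusted p = 0.000874). C9 was 12.25, 12.10, 12.55 and 12.40 under vehicle, against 11.18, the highest of all strains, and differed by 1.15 ± 0.26 in the tolvaptan arrays (adjusted p = 0.0028). C6 differed by 0.94 under vehicle and by 1.41 ± 0.38 in the tolvaptan arrays (adjusted p = 0.0173). Without animal 448 C9 and C6 had adjusted p-values of 0.0709 and 0.18. Under vehicle 22, 17 and 21 other strain means lay within 1 of OR3609 for Hc, C9 and C6, and 1, 0 and 6 were higher. C8a, C8b and C8g of the same pathway differed by 0.31, 0.15 and -0.02 under vehicle, none called.

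Interferon-responsive genes were lower under vehicle in 30 of 35 (median -0.32) and in 24 of 35 in the tolvaptan arrays (median -0.22). The transcription factor Irf8 was the 1 call, at -0.69 under vehicle and -0.88 in the tolvaptan fit (adjusted p = 0.0394). Stat2 was 4.74, 4.83, 4.92 and 4.76 in OR3609 vehicle animals, against 5.91, but its tolvaptan-array difference was -0.57 (adjusted p = 0.375). Of 12 class I antigen presentation genes, the trimming peptidase Erap1 and H2-T23 were called higher, by 1.03 ± 0.28 and 0.93 ± 0.24 (adjusted p = 0.02 and 0.0134). Both lost the call without animal 445 (0.0652 and 0.0503) and without animal 448 (0.206 and 0.0598). The other probe set of Erap1 differed by -0.35 under vehicle and by -0.31 in the tolvaptan arrays without scan adjustment. The direction for Erap1 thus depends on the probe set. None of 11 class II genes was called, although H2-Eb1 was 1.29 higher and H2-Ea 1.28 lower under vehicle.

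Of 28 acute phase genes none was called, and Saa2 ranged from 4.17 to 10.30 over the 4 vehicle animals. The other lists held few calls. Among 17 Serpin genes Serpina1a was called lower, among 27 cell cycle genes the ribonucleotide reductase subunit Rrm2 was called higher (5.16, 6.21, 5.63 and 5.39 under vehicle, against 3.91, and 1.33 ± 0.28 in the tolvaptan arrays, adjusted p = 0.00118, or 0.14 without animal 448), and among 3 measured pheromone carriers Obp2a was called higher. No member of the endoplasmic reticulum stress (29), heat shock (12) or immediate early (16) lists was called.

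Markers of other liver cells were mostly within the range of the panel. The mean over 17 Kupffer cell and macrophage markers was 5.54 to 5.84 in OR3609 vehicle arrays, against 4.29 to 7.05 with a median of 5.84. The macrophage pore-forming gene Mpeg1 was 7.18, 6.63, 7.18 and 6.93, against 8.02, and was called in the tolvaptan arrays (-0.93 ± 0.24, adjusted p = 0.0121), but not without animal 445 (0.0504) or 448 (0.195). Cybb and Irf8, which are lower in OR3609, are also expressed by such cells, and the part of cell number in these values was not tested. Of the 17 macrophage markers, 5 were higher under vehicle and 7 in the tolvaptan arrays, none called higher. Among them Cd163 was higher by 0.89 under vehicle and by 0.59 in the tolvaptan arrays without scan adjustment. Sinusoidal endothelial markers were at 5.84 to 6.09, against a median of 5.94, stellate cell markers at 4.93 to 5.27, against 5.08, and bile duct markers at 3.03 to 3.34, against 3.37, with the lowest OR3609 array just under all others (3.05). Lymphocyte, neutrophil and pancreatic markers averaged at 2.52 to 3.36, near the array medians, in all OR3609 vehicle arrays. T and NK cell markers reached down to 2.52 there, against 2.57 in the lowest other array. No gene of the endothelial (17), stellate (16), bile duct (9), neutrophil (11), T and NK cell (14), B cell (10), erythroid (7) or exocrine pancreas (10) lists was called. Of 7 fat cell markers Pparg, a nuclear receptor of fat storage, was called lower (-0.72 under vehicle, -0.98 in the tolvaptan fit, adjusted p = 0.00568, or 0.113 without animal 448), and of 16 hepatocyte markers Serpina1a was called lower.

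Of 13 pericentral hepatocyte markers 9 were lower under vehicle (median -0.40), while 8 of 12 periportal markers were higher (median 0.16). The ammonium transporter Rhbg was the 1 called pericentral gene (-0.69 under vehicle, -1.03 in the tolvaptan fit, adjusted p = 0.03), and no periportal gene was called. Cyp2e1, an abundant pericentral cytochrome, differed by less than 0.01 in both. The pericentral means of the OR3609 vehicle arrays, 8.12 to 8.33, lay inside the range of the other arrays, 7.01 to 9.09.

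Genes past 2-fold under vehicle were spread over all autosomes and chromosome X, at 2.22% of all kept genes. The highest shares were on chromosomes 12 (23 of 473 genes, 4.86%), 13 (20 of 506, 3.95%) and 10 (23 of 690, 3.33%), and the lowest on chromosome X (4 of 406, 0.985%). In the tolvaptan arrays, where 2.94% of genes were called, chromosomes 13, 12 and 6 had the highest shares, 6.52%, 6.34% and 5.67%. Chromosome 12 holds Lpin1, Dcaf4, Acot3, Serpina1a, Serpina4-ps1, Rrm2, 2210039B01Rik and 9330151L19Rik, and chromosome 13 holds Isca1, Tubb2a, Bicd2, Cxcl14 and Erap1.

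With at most 2 other protein-coding genes between them in the RefSeq order, 20 pairs of genes past 2-fold were neighbours, and 12 of these pairs differed in the same direction. They come from 292 genes past 2-fold with a position, and past 2-fold 147 genes were higher and 166 lower. Whether either count exceeds that of genes placed at random was not tested. On chromosome 16 Ube2v2 and Mzt2 were higher by 1.80 and 1.03 under vehicle, and both were called. On chromosome 6 Zfand4 and Marchf8 were lower by -1.27 and -1.24, both called, and on chromosome 11 Dhx40 and Gdpd1 were higher by 1.55 and 1.81, both called. Erap1 on chromosome 13 lies beside Cast, which was 1.29 higher. Some neighbours differed in opposite directions, such as Cyp2b10 (1.89) and Cyp2b9 (-1.50), neither called. On chromosome 13 so did Zfp825 (-1.91) and Erap1 (1.11), both called, and Akr1c18 (-2.15) and Akr1c12 (1.40), both called. The Erap1 value is that of its brightest probe set, and its other probe set was lower in OR3609. For Akr1c18, 18 other strain means under vehicle lay within 1 of OR3609. Apart from Erap1, Ube2v2, Cyp2b10, Zfp825 and Akr1c18, the genes of these pairs were named after their values were seen. The sources name no genome build, so coordinates are left out.

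The response of OR3609 to tolvaptan was tested in a fit over all 354 arrays, and this contrast shares the 4 vehicle arrays with the description. No gene was called (0%), with 389 genes at an unadjusted p below 0.05 and a lowest adjusted p of 0.084. The difference between the OR3609 response and the mean response of the other strains was likewise called in no gene (0%), with 440 genes at an unadjusted p below 0.05 and a lowest adjusted p of 0.316. A count of 0 from 4 animals against 4 does not show that the drug was without effect.

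The gene nearest to a call, picked after its values were seen, was Praf2, a small membrane protein of the secretory pathway. It was 5.88, 6.54, 6.88 and 5.59 in tolvaptan animals, against 3.80, 5.06, 3.24 and 4.43 in vehicle animals, so the 2 groups did not overlap. The response was 1.75 ± 0.38 (adjusted p = 0.084). It was 2.09 without the scan term (0.0016), 2.14 with the mean over probe sets (0.00922) and 1.70 without animal 446 (0.178). Within scan 5, where OR3609 has only 1 vehicle array, it was 1.38, given as a size only. In the other strains its mean was 4.47 under tolvaptan and 4.38 under vehicle. The vehicle level of OR3609 was 0.25 under that of the other strains.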

How the data were processed

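Liver RNA of each mouse was hybridised to 1 Affymetrix HT_MG-430 PM array. The deposited values are log2 intensities, and the submitters' processing notes name RMA and the Affymetrix Expression Console; versions, the genome build and whether all arrays were normalized together are not given in the sources used here. The number of arrays limits the precision.

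Of 42597 probe sets, 27691 had 1 gene symbol, 493 had several, 14376 had none and 37 were controls. Each gene was represented by the brightest of its single-symbol probe sets (mean over arrays) and kept when above the array median in at least 4 arrays (14125 genes, 22 of them only through OR3609 arrays). RefSeq (GRCm38.p6) served for names, chromosomes and gene order, and matched 27494 of the single-symbol probe sets. Vehicle differences are the OR3609 mean minus the mean of 44 strain means. Tests were fitted with limma 3.58.1 in R 4.3.3, two-sided, with Benjamini-Hochberg adjustment over all genes at 0.05. The fits had scan (6 scan dates) as a covariate and shared the residual spread over all strains, and the steps were tested on simulated data. Each array is a separate animal, but p-values measure the spread between animals within strains. Arrays with a correlation under 0.5 to their labelled strain over 500 probe sets were called poorly matching (34 arrays of 19 strains) and were kept, with results without them among the alternatives.

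Named genes were the 15 highest and 15 lowest vehicle differences with all 4 OR3609 arrays on 1 side of the median strain; up to 10 further genes beyond all strain means; up to 3 members of each list by the size of the vehicle difference; called genes of the response; and 5 further called genes in each direction in the tolvaptan arrays. Other called list members and list members given for their role are printed beside them. The strain, the lists and these rules were chosen with earlier results of these data known. Alternatives for the main counts are listed in the closing section. Of the 10 further genes beyond all strain means, 1 is not reported here; it was not called, and the count of calls includes it.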

Additional observations from a re-analysis of the deposited data

Results flagged for a closer look

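In groups of 4 animals, the highest or lowest animal was compared with its nearest neighbour, and 14 of 292 groups among the 146 named genes had a gap above Dixon's 95% critical value for 4 samples, relative to the group's range; chance alone gives this in about 1 group of 20. Causes were not tested.

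In vehicle animals of OR3609, animal 443 stood low for Lpin1 at 10.4, for Tat at 11.2 and for H2-Ea at 3.41, and high for Try5 at 3.33. Animal 444 stood low for Thrsp at 8.6 and for Cyp7b1 at 11.8, and high for Nipal1 at 7.7. Animal 441 stood high for Cul7 at 4.19, for Chac1 at 7.68 and for Cdkn3 at 3.71, and animal 442 stood high for Cpa1 at 2.6. In tolvaptan animals, animal 447 stood high for Gstm4 at 8.13, animal 448 high for C6 at 10.5 and animal 446 low for Arhgef10 at 5.33. Try5, Cpa1 and Cdkn3 had means under the typical array median of 2.89, where values are close to background.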

How the results depend on the processing

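The counts of vehicle genes past 2-fold stayed within 1.5 times under all 12 alternatives tried on them, each vehicle animal left out included, at 116 to 173 higher and 142 to 192 lower. The other alternatives left out the poorly matching arrays, took the mean over probe sets, or changed or dropped the filter on dim probe sets. They also normalized by quantiles again, removed scan effects, used the median of the other strains, or set each array within its own scan. The 415 calls in the tolvaptan arrays moved more. They were 174 (82 higher, 92 lower) with a 2-fold limit, 1322 (766 higher, 556 lower, 381 shared with the 415) with no scan term, 225 (112 higher, 113 lower, 106 shared) within scan 5, which holds 3 of the 4 OR3609 animals, and 4 (3 higher, 1 lower) with strains as the unit. Scan 5 holds only 8 tolvaptan arrays of other strains. With 1 animal left out they were 180 to 387 (102 to 212 higher, 78 to 175 lower), lowest at 180 without animal 448 and at 263 without animal 445. The fit without animal 448 leaves only scan 5 animals of OR3609. The count was 529 without the 34 poorly matching arrays, and 402 to 551 under the other alternatives. The response and the response difference each had 1 called gene with the mean over probe sets, with no scan term and without tolvaptan animal 446, and 0 otherwise. For the response these genes were Praf2, Praf2 and Npy. Within scan 1 each strain has 1 array per treatment, so only differences without a test were had there. No difference called for a named gene reversed its sign. Of 55 named genes called in the tolvaptan arrays, 30 were called with each of the 4 animals left out and 25 were not, 24 of these without animal 448, and 26 of the 55 lost the call within scan 5. No paired analysis was possible because the replicate numbers follow accession order and pair no animals.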
